A study of Canis lupus familiaris with 8 samples.

Results

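CD5 and CD7 are 2 surface proteins carried by most T cells, and their transcripts were followed here in 4 blood libraries of sorted canine TCRαβ+ T cells, as 2 of the 20257 genes of the count matrices. Both genes were chosen by name (CD5, ENSCAFG00000016332, and CD7, ENSCAFG00000029286), with earlier results of these data known. The study that reported the data gave lowered CD5 as a trait of its iNKT-like CD8A cluster, which had raised FCER1G and TOX. It also named CD7 among the genes of its central memory CD8A cluster. The CD5 comparisons by FCER1G and TOX below therefore partly revisit a published result from the same cells. CD5 is a scavenger receptor family glycoprotein that associates with the T cell receptor and dampens its signal, and its amount on the surface is known to follow the strength with which a T cell recognises self ligands. CD7 is an immunoglobulin superfamily protein of T and NK cells that binds galectin-1 and SECTM1 and is known to recruit phosphoinositide 3-kinase. Loss of either protein is used in the clinic as a sign of an aberrant T cell, so their normal range among blood T cell subsets is of practical interest.

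The T cells came from 4 healthy Beagles (1 female of 5 years and 3 males of 7, 7 and 9 years). Viable cells were sorted with a TCRαβ antibody and then frozen, and dead cells and doublets were gated out in the sort. Each dog gave 1 5' gene expression library and 1 V(D)J library from the same cells, so the dog was the replicate (n = 4). Cells with 500 to 20000 unique molecular identifiers (UMIs) and at most 10% mitochondrial UMIs were kept, which left 31909 of 33125 barcodes, with 7096 to 8454 cells and a median of 3599 to 3931.5 UMIs per dog. Pairs of libraries shared 87 to 120 barcodes.

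Cells were gated by transcript: CD4 single-positive (sp) cells had at least 1 CD4 UMI and no CD8A UMI, CD8A sp cells the reverse, dp cells had both and dn cells neither. The gates gave 13247 CD4 sp, 6427 CD8A sp, 725 dp and 11510 dn cells. A plus or minus sign behind FCER1G, TOX or CCR7 marks cells with and without a UMI of that gene, so a minus gate also holds cells in which the transcript was missed. FCER1G encodes the Fc receptor gamma chain, a signalling adaptor of NK and other innate cells that in T cells marks innate-like programmes. TOX is a nuclear factor of T cell development and of chronically stimulated CD8 T cells, and CCR7 is the lymph node homing receptor of naive and central memory cells. Levels (CPM) are UMIs of the gene per 1000000 UMIs, summed over the cells of a subset in 1 dog. Because 2 genes differ in length and capture, the level of CD5 was not set against that of CD7.

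As a check of T cell identity, CD3E stood at 1197 to 1372 CPM in CD4 sp cells and at 1175 to 1351 CPM in CD8A sp cells. Among markers of other cells, summed over the list, NK genes (NCAM1, NCR1, KLRF1) reached at most 1.47 CPM in CD4 sp cells and 12.7 to 18.0 CPM in CD8A sp cells. Of the 7 B cell genes, 5 entered the sums, and CD79A alone made up nearly the whole signal, with 9212 to 10533 CPM in CD4 sp and 9179.5 to 10481 CPM in CD8A sp cells. MS4A1, CD79B and BLK were near 0 beside it, and whether the CD79A counts come from B cells or from the gene model was not tested. The myeloid gene S100A8 stood at 1211.5 to 2918 CPM in CD4 sp and 884 to 1881 CPM in CD8A sp cells. The platelet, erythroid and gamma-delta T cell sums were at or under 1.74 CPM in both. They held only 3 of 5, 1 of 3 (ALAS2) and 1 of 2 (SOX13) listed genes, and the myeloid list 3 of 10. These low sums therefore do not show that such cells were absent. No cell type that should lack CD5 or CD7 was part of the sort, so the share of cells given a UMI by free RNA was not measured directly.

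A UMI of CD5 was seen in 63.6 to 70.2% of all kept cells of a dog and a UMI of CD7 in 40.5 to 51.9%. These shares rest on 8738 to 13378 CD5 UMIs and 4612 to 8864 CD7 UMIs per dog.

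CD5 was higher in CD4 sp cells and CD7 in CD8A sp cells. In CD4 sp cells CD5 stood at 324, 416, 435 and 482 CPM in dogs 1 to 4. In CD8A sp cells it stood at 234, 314, 266 and 227 CPM. Every dog had less CD5 in CD8A sp cells and the lineages did not overlap, although the lowest CD4 sp value (dog 1) and the highest CD8A sp value (dog 2) lay close together. The fitted difference was a log2 fold change of -0.68 ± 0.13 (SE), or 1.60-fold lower (adjusted p = 0.00722, edgeR's quasi-likelihood test with Benjamini-Hochberg adjustment over all genes, which is the test behind every adjusted p here unless another is named). Without dog 3 the adjusted p rose to 0.0542 at a log2 fold change of -0.67.

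CD7 ran the other way. Its level was 131, 165, 165 and 185 CPM in CD4 sp cells. In CD8A sp cells it was 444, 437, 346 and 496 CPM, so the lineages did not overlap. With a log2 fold change of 1.40 ± 0.12, CD7 was 2.65-fold higher in CD8A sp cells in 4 of 4 dogs (adjusted p = 8.79e-05). In this comparison 14.1% of the 10120 genes tested were called.

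The shares of cells moved in the same directions. A CD5 UMI was found in 73.8% ± 5.70 (SD, n = 4) of CD4 sp cells and in 55.5% ± 5.88 of those in the CD8A sp gate, and a CD7 UMI in 45.9% ± 5.32 and 62.3% ± 3.34. With cells thinned to 2000 UMIs each, and 1465 shallower cells of the CD4 sp and 715 of the CD8A sp gate set aside, the CD5 shares were 52.9% ± 5.93 and 37.2% ± 3.83 and the CD7 shares 27.2% ± 2.78 and 47.0% ± 4.33. The median depths of the subsets were alike, at 3747 to 4092 UMIs in CD4 sp and 3586.5 to 3932 UMIs in CD8A sp cells. Cells in the dn gate had CD5 at 406 ± 45.6 CPM and CD7 at 189 ± 23.4 CPM. They made up 36.1% of kept cells and were shallower, with medians of 3232 to 3625 UMIs. The study could not tell true double-negative cells from cells in which CD4 was missed. These dn levels are therefore not those of double-negative T cells alone. In dp cells, which were deeper (medians of 5418 to 5955 UMIs), CD5 was at 345 ± 19.2 CPM and CD7 at 252 ± 39.0 CPM, between the levels of both sp gates.

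Genes of 6 lists around CD5 and CD7 were followed in the same comparison, in which 14.1% of all genes were called. Of 15 measured pan-T surface and CD3 genes, 3 passed the test as higher and 3 as lower in CD8A sp cells, with a median log2 fold change of 0.05 against a median of 0.00 over all genes. Those with the largest differences were CD96, an adhesion receptor (log2 fold change 2.65), CD52 (-2.23) and the costimulatory receptor CD28 (-1.40). Of 17 measured brakes on TCR signalling, 8 were higher and 3 lower (median 0.21), led by the phosphatase PTPN22 (2.69), the adaptor SLA2 (1.27) and the ubiquitin ligase CBLB (1.11). Among 16 proximal signalling genes 3 were higher and 1 lower, or 6 and 5 with the dog as block (median 0.02 in the main test), the named ones being ZAP70 (0.60), FYN (0.40) and LCK (0.27). With that block 27.1% of all genes tested were called. Of the 5 measured CD7 ligand and PI3K genes only PIK3CG passed (0.76). The innate-like and NK receptor list had 10 of 13 genes higher and 2 lower (median 2.0), among them NCR3 (6.34), KLRB1 (5.80) and KLRD1 (5.29). The naive list had 4 of 7 lower and none higher by edgeR, led by LEF1 (-1.56), IL7R (-1.07) and TCF7 (-0.76).

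Within CD8A sp cells the FCER1G gate split CD5 and CD7 in opposite directions. The gate was a clear one: of 1463 FCER1G+ cells, 998 had 4 or more FCER1G UMIs and 164 had 1. CD5 in FCER1G+ cells was 120, 147, 162 and 87.3 CPM in dogs 1 to 4. In FCER1G- cells it was 267, 373, 286 and 285 CPM, so the lowest FCER1G- value lay above the highest FCER1G+ value. CD5 thus fell by 1.27 ± 0.17 on the log2 scale, or 2.41-fold (adjusted p = 0.00319, lower in 4 of 4 dogs). CD7 was 584, 656, 582 and 800.1 CPM in FCER1G+ cells. It was 404, 359, 299.9 and 369 CPM in FCER1G- cells, again without overlap. The log2 fold change of CD7 was 0.84 ± 0.12, or 1.79-fold higher (adjusted p = 0.00335, higher in 4 of 4 dogs). The gate called 1.93% of 8506 genes. Both calls were made under all 16 alternative settings tried, with log2 fold changes of -1.43 to -1.13 for CD5 and 0.74 to 0.95 for CD7.

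In shares of cells, 36.3% ± 7.95 of FCER1G+ cells against 61.6% ± 6.29 of FCER1G- cells had a CD5 UMI, and 73.3% ± 7.32 against 58.7% ± 3.81 a CD7 UMI. Thinned to 2000 UMIs (109 and 606 cells left out), the CD5 shares were 22.2% ± 5.87 and 42.4% ± 5.196 and the CD7 shares 59.9% ± 6.97 and 42.7% ± 3.78. Median depths were 3510 to 4034 and 3592 to 4048 UMIs.

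The FCER1G+ cells held more NK signal, with a summed level of 18.96 to 47.0 CPM against 9.29 to 10.9 CPM, NCR1 being its highest gene while NCAM1 was at 0 in the FCER1G+ cells, and less S100A8 (458 to 1361 against 1007 to 2219 CPM). CD3E was at 1147 to 1302 CPM in FCER1G+ and 1168 to 1366 CPM in FCER1G- cells. The part of NK or myeloid RNA in the CD5 and CD7 differences was not tested.

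CD5 did not fall alone. CD6, its close relative of the scavenger receptor family and likewise a modulator of TCR signalling, was lower by a log2 fold change of -1.95 ± 0.09 (122 against 459 CPM on average, adjusted p = 3.63e-07). CD52 (-2.67) and CD28 (-1.79) fell as well, and of the 15 pan-T genes 3 fell and 1 rose, or 7 and 1 with the dog as block (median -0.10). Of the proximal signalling list 2 of 16 rose and 2 fell: the membrane scaffold LAT (-1.73, 18.8 against 62.1 CPM), the Tec kinase TXK (1.35) and the adaptor TRAT1 (0.77) were the named ones. Of the brakes 3 of 17 rose (PTPN22, 1.09, SLA2, 1.09, and the adaptor DOK2, 0.57) and 2 fell. PIK3R1, the regulatory PI3K subunit, rose by a log2 fold change of 1.17 (325 against 141 CPM) and was the only called gene of the 5 in its list. Of 12 innate-like and NK receptor genes, KLRD1 (0.96) and EOMES (0.80) rose and none fell by edgeR, whereas 7 rose and 1 fell with the dog as block. The share of all genes called went from 1.93 to 5.42% with that block. IL7R (-1.52) was the only called gene of 6 naive genes.

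The same gate could hardly be drawn in CD4 sp cells. Only 47 of 13247 CD4 sp cells had an FCER1G UMI (6, 21, 8 and 12 in dogs 1 to 4), and 40 of them had exactly 1. Their CD5 was at 189, 483, 308 and 251 CPM and their CD7 at 94.4, 126, 154 and 269 CPM. With a minimum of 20 cells per sum only dog 2 entered the test, as 1 sum against 4 and with the spread of that lone sum taken to equal that of the others. The log2 fold changes were 0.14 ± 0.26 for CD5 and -0.43 ± 0.35 for CD7 (adjusted p = 0.942 for both), beside a median of -0.49 over all genes, so that CD5 stood above that median. No gene of 10766 was called (0%), 459 had an unadjusted p under the threshold of 0.05, and DESeq2 called 5. The difference of the FCER1G effects between the lineages was -1.39 ± 0.40 for CD5 and 1.29 ± 0.38 for CD7 (adjusted p = 0.942 for both, median of all genes 0.44, 0.00963% of genes called). As the FCER1G+ arm of CD4 sp cells was 1 sum from 1 dog, these values carry no statement on whether the lineages differ.

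**Figure D1:**
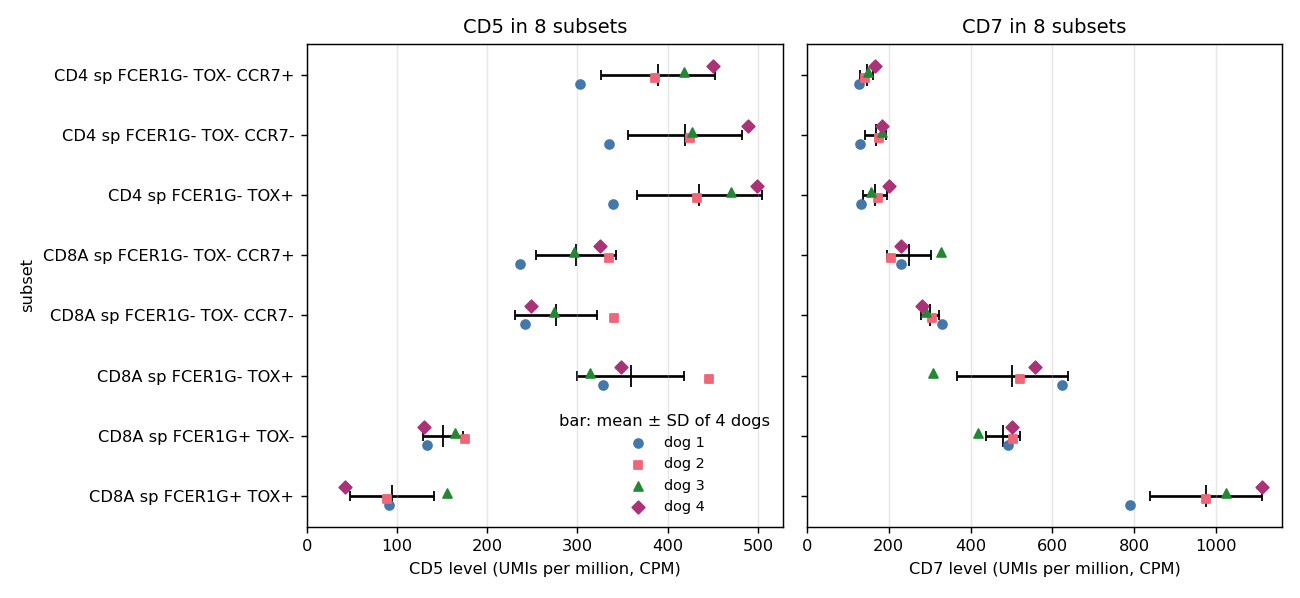
CD5 (left) and CD7 (right) levels in CPM (horizontal axis) in 8 non-overlapping subsets (vertical axis). Each symbol is a dog and the bar gives mean ± SD of 4 dogs. CD5 was lowest and CD7 highest in CD8A sp FCER1G+ TOX+ cells, where CD5 lay between 42.3 and 156 CPM and CD7 between 789 and 1112 CPM.

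Cells that carried both FCER1G and TOX had the highest CD7 of the 8 subsets compared. In these 437 CD8A sp cells CD7 stood at 789, 974.6, 1024 and 1112 CPM. In the 1026 FCER1G+ TOX- cells it stood at 492, 505, 419 and 502 CPM, so each FCER1G+ TOX+ value exceeded every FCER1G+ TOX- value. On the log2 scale CD7 was higher by 0.98 ± 0.11, or 1.97-fold (adjusted p = 8.25e-05, 4 of 4 dogs), and was called under all 16 alternatives. CD5 was 91.0, 89.1, 156 and 42.3 CPM in FCER1G+ TOX+ cells. It was 133, 175, 164 and 130 CPM in FCER1G+ TOX- cells, higher in each dog, but the dog 3 values were close. The CD5 log2 fold change was -0.87 ± 0.27 (adjusted p = 0.0904), and with the dog as block it was -0.90 ± 0.18 (adjusted p = 0.00220). The main test called 4.61% of 6675 genes and the blocked one 8.58%.

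Without dog 3 the CD5 difference was -1.21 and passed without the block (adjusted p = 0.0222). When the largest clonotype of each subset and dog was left out, it was -0.60 (adjusted p = 0.301), or -0.61 (adjusted p = 0.0298) with the block. FCER1G+ TOX+ cells were deeper, with medians of 4594 to 5073 UMIs against 3267.5 to 3774.5. With cells thinned to 2000 UMIs before gating the CD5 difference was -0.27 (adjusted p = 0.934) and was not called with the block either. The CD7 difference was called under each of these settings (0.70 to 0.90 on the log2 scale).

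A CD7 UMI was present in 87.9% ± 3.68 of FCER1G+ TOX+ and 67.9% ± 6.92 of FCER1G+ TOX- cells, or 75.6% ± 4.22 and 53.3% ± 7.38 after thinning (11 and 98 cells left out). For CD5 the shares were 32.7% ± 13.8 and 38.7% ± 5.07, or 20.8% ± 10.3 and 23.2% ± 4.80 after thinning. Cells of this gate without the cytotoxic granule protease GZMB reached 985, 1084, 1199 and 1240 CPM of CD7, although only 14 to 152 such cells came from a dog.

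Around CD7, LGALS1, which encodes its ligand galectin-1, rose in FCER1G+ TOX+ cells by a log2 fold change of 0.76 (864 against 491 CPM on average) and was the only called gene of 4 tested in its list. Over all genes tested here 4.61% were called, or 8.58% with the dog as block. Of 14 pan-T genes 4 fell and 1 rose (median 0.02), THY1 (-1.65) and CD27 (-1.45) among those that fell. Of 16 proximal signalling genes 5 fell and none rose by edgeR (median -0.31), among them THEMIS (-2.18) and TXK (-0.82). Of 16 brakes 2 fell, CBLB (-1.04) among them. Of 11 innate-like and NK receptor genes 4 fell and 1 rose, or 7 and 1 with the dog as block (median -0.77): KLRG1 (-1.74), EOMES (-1.65) and KLRB1 (-1.57) were the named ones. In the naive list TCF7, a factor of naive and stem-like T cells, rose by 1.55 (339 against 112 CPM). The NK sum was 8.63 to 21.3 CPM against 18.4 to 61.0 CPM, and CD79A was 6609.7 to 7805 CPM against 8891 to 11094 CPM. MS4A1, CD79B and BLK were again near 0, the source of the CD79A counts was not tested, and neither was the part of either signal in the CD5 and CD7 differences.

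**Figure D2:**
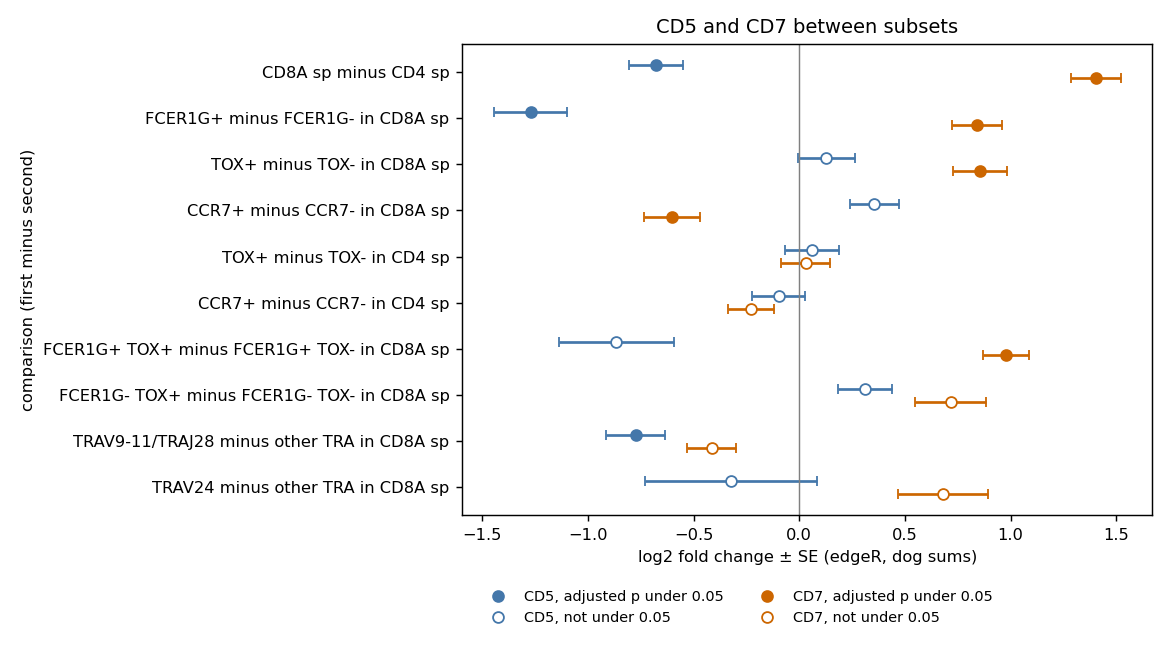
Log2 fold change ± SE (horizontal axis) of CD5 and CD7 for 10 comparisons of dog sums (vertical axis, first subset minus second). Filled symbols have an adjusted p under 0.05. In CD8A sp cells the FCER1G gate moved CD5 by -1.27 and CD7 by 0.84, and the TOX gate moved CD7 by 0.85.

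Among FCER1G- cells CD7 was also higher with TOX, but the main test did not call the difference. In FCER1G- TOX+ cells CD7 was 623, 521, 308 and 556 CPM. In FCER1G- TOX- cells it was 309, 282, 298 and 278 CPM, lower in each dog, with the smallest gap in dog 3. The log2 fold change was 0.72 ± 0.17 (adjusted p = 0.404), or 0.68 ± 0.11 with the dog as block (adjusted p = 0.00516). Without dog 3 it was 0.90 (adjusted p = 0.0272). CD7 was called under 7 of 16 alternatives. The TOX+ cells were deeper here too, with medians of 3675.5 to 4729 against 3359.5 to 3806 UMIs. CD5 here was 328, 446, 314 and 348 CPM in TOX+ cells. In TOX- cells it was 241, 339, 278 and 254 CPM, also lower in each dog. The CD5 log2 fold change was 0.31 ± 0.13 (adjusted p = 0.870), or 0.31 ± 0.06 with the block (adjusted p = 0.0209). The main test called 0.0124% of 8033 genes and the blocked one 2.14%, with the gate gene TOX not removed from the genes tested.

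CD5 thus differed in opposite directions by TOX on both sides of the FCER1G gate, lower with TOX in 4 of 4 dogs among FCER1G+ cells and higher in 4 of 4 dogs among FCER1G- cells. Without the largest clonotype of each subset and dog, CD5 in FCER1G+ cells was 57.6, 126, 171 and 62.5 CPM with TOX and 131, 177, 158 and 134 CPM without it, so it was lower with TOX in 3 of 4 dogs and higher in dog 3. The test of this difference gave -1.18 ± 0.33 (adjusted p = 0.609, 0 of 7939 genes called by edgeR, 470 with an unadjusted p under 0.05, 1 called by DESeq2). With the dog as block it was -1.24 ± 0.25 (adjusted p = 0.0542, 0.0882% of genes called). For CD7 the difference was 0.25 ± 0.21 (adjusted p = 0.960).

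Taking all CD8A sp cells, CD7 was 661, 640, 451 and 769 CPM with TOX. Without TOX it was 349, 340, 316 and 332 CPM, a narrow range below all TOX+ values. The log2 fold change was 0.85 ± 0.13, or 1.81-fold (adjusted p = 0.0294), with 0.173% of 8679 genes called. The call was lost without dog 1, 2 or 4 (adjusted p of 0.177, 0.209 and 0.232) and after thinning (0.67, adjusted p = 0.450), and with the dog as block the adjusted p was 8.21e-05. CD5 was 274, 352, 282 and 231 CPM with TOX and 217, 296, 261 and 224 CPM without it, a log2 fold change of 0.13 ± 0.13 (adjusted p = 0.846). TOX+ cells had median depths of 3852.5 to 4766 UMIs and TOX- cells of 3385 to 3724 UMIs. No gene of the pan-T, proximal signalling, brake, ligand, innate-like and naive lists was among the 15 genes called by edgeR here, apart from CD7 itself, which no list held. With the dog as block, 1 of the 12 innate-like and NK receptor genes rose and 6 fell, while 5.75% of all genes tested were called. The NK sum was 4.96 to 14.1 CPM in TOX+ and 14.7 to 25.9 CPM in TOX- cells, and CD79A stood at 7719 to 9313 CPM and 9794.0 to 11311 CPM. The part of either in the CD7 difference was not tested.

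In CD4 sp cells the TOX gate, with 3210 positive cells, moved neither gene past the test. CD7 was 134, 175, 157 and 202 CPM with TOX and 130, 161, 168 and 179 CPM without it (log2 fold change 0.03 ± 0.12, adjusted p = 1.0). CD5 was 339, 433, 470 and 497 CPM with TOX and 319, 409, 423 and 477 CPM without it (0.06 ± 0.13, adjusted p = 1.0). The call rate was 0.0207% of 9668 genes. The CD7 difference by TOX was larger in CD8A sp than in CD4 sp cells by 0.82 ± 0.18 on the log2 scale (adjusted p = 0.488, 0 of 9562 genes called by edgeR, 372 with an unadjusted p under 0.05, 1 called by DESeq2), and by 0.81 ± 0.15 with the block (adjusted p = 0.0314, 0.125% of genes called).

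**Figure D3:**
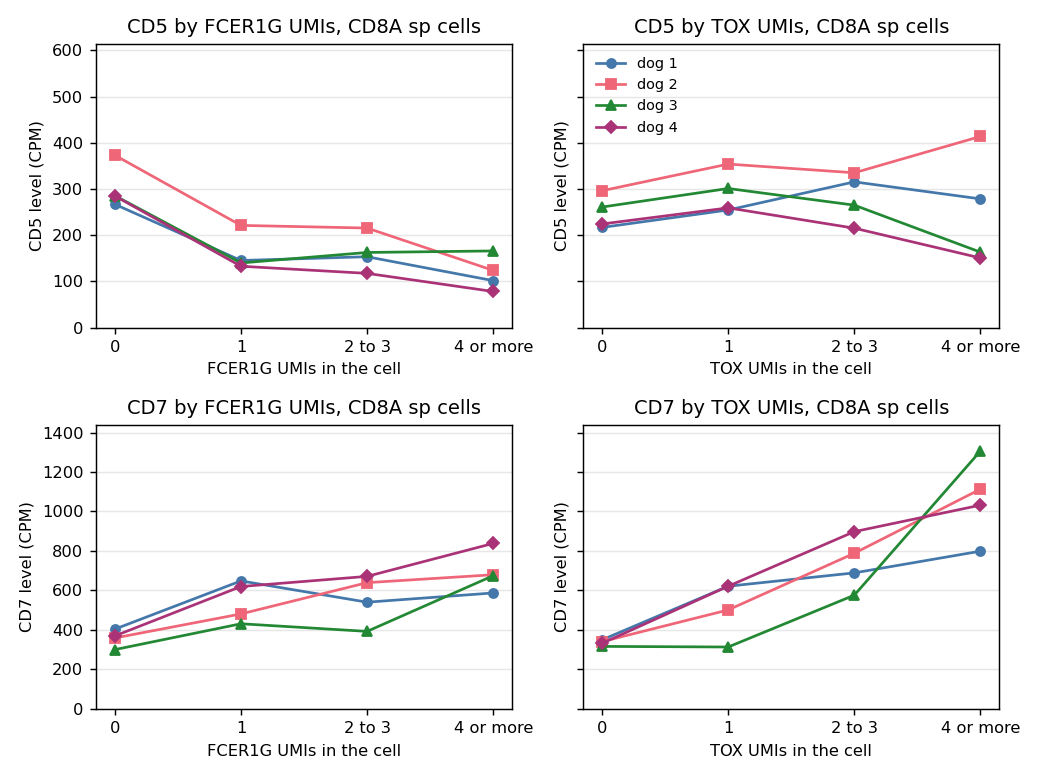
CD5 (top) and CD7 (bottom) level in CPM of CD8A sp cells (vertical axes) by the number of FCER1G (left) or TOX (right) UMIs in the cell (horizontal axes), 1 line per dog. CD7 was 316 to 349 CPM at no TOX UMI and 799 to 1306 CPM at 4 or more, and CD5 was lower at each class of FCER1G UMIs above 0 than at 0 in every dog.

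The level of each gene was also followed by the number of gate UMIs, a view chosen after the values were seen. CD7 in CD8A sp cells was 334 ± 14.1 CPM at no TOX UMI, 514 ± 146 at 1, 738 ± 138 at 2 to 3 and 1062.5 ± 210.2 at 4 or more, the last class holding 96 cells and as few as 13 in a dog. Dog 3 had no increase from 0 to 1 TOX UMI (316 and 313 CPM). In CD4 sp cells the same classes gave 159, 165, 171 and 161 CPM. CD5 in CD8A sp cells was 303 ± 47.8 CPM at no FCER1G UMI, 160 ± 41.3 at 1, 162 ± 40.5 at 2 to 3 and 117 ± 37.4 at 4 or more, so the widest step lay between 0 and 1. Cells with more TOX UMIs were deeper (medians of 3385 to 3724 UMIs at none and 5637 to 7327 at 4 or more), whereas those with 1 FCER1G UMI were shallower than those with none (2974 to 3547 against 3592 to 4048). No test was made on these classes.

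By the CCR7 gate CD7 was lower in CCR7+ than in CCR7- CD8A sp cells. The study found CCR7 in both its naive and its central memory CD8A cluster, and named CD7 for the central memory one. This gate pools both kinds of cell, so its values are not levels of the central memory cluster. CD5 was higher in CCR7+ cells in each dog but did not pass the main test. CD7 was 236, 261, 327 and 284 CPM in the 772 CCR7+ cells. In CCR7- cells it was 487, 478, 349.6 and 511 CPM, higher in each dog, with dog 3 showing the smallest gap. CD7 fell by 0.60 ± 0.13 on the log2 scale, or 1.52-fold (adjusted p = 0.0145, 9.18% of 8233 genes called). This call was lost without dog 1, 2 or 4 (adjusted p of 0.0840, 0.117 and 0.0719) and after thinning (-0.37, adjusted p = 0.254). CD5 was 253, 339, 296 and 319 CPM in CCR7+ cells and 230, 308, 259 and 220.4 CPM in CCR7- cells, lower in each dog. The CD5 log2 fold change was 0.35 ± 0.12 (adjusted p = 0.0773), or 0.34 ± 0.07 with the dog as block (adjusted p = 0.00175, 16.8% of genes called). CCR7+ cells were deeper, with medians of 4181 to 5061.5 against 3452.5 to 3856 UMIs. Among CD8A sp cells with neither an FCER1G nor a TOX UMI the differences in CPM were smaller. There CD5 was higher in CCR7+ cells by 21.9 ± 38.6 CPM (mean ± SD, higher in 2 of 4 dogs). CD7 was higher in CCR7- cells by 52.9 ± 65.3 CPM (higher in 3 of 4 dogs).

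The same lists were counted by CCR7, where 9.18% of all genes tested were called, or 16.8% with the dog as block. Of 12 innate-like and NK receptor genes 10 fell and none rose by edgeR (median -1.25), led by NCR3 (-2.33), KLRB1 (-2.11) and CD244 (-1.99). Of 7 naive genes 5 rose and none fell (median 1.02), led by LEF1 (2.51), BACH2 (2.49) and TCF7 (1.03). Of 15 pan-T genes 2 rose, CD28 (1.14) and CD52 (1.10), and 2 fell, among them CD96 (-1.62), or 4 and 6 with the dog as block. Of 16 proximal signalling genes 3 rose and 3 fell, and of 16 brakes 1 rose (the diacylglycerol kinase DGKA, 0.86) and 4 fell, among them PTPN22 (-1.26) and DOK2 (-1.20). PIK3CG (-0.88) was the only called gene of the 5 ligand and PI3K genes in the main test. Among the marker genes, the NK sum was 1.94 to 8.28 CPM in CCR7+ and 13.6 to 20.6 CPM in CCR7- cells, and NCR1 fell by 2.78 on the log2 scale (adjusted p = 0.000584). CD79A stood at 10414 to 12416 CPM in CCR7+ and 8905 to 10065 CPM in CCR7- cells, a log2 fold change of 0.37 (adjusted p = 0.0269), and CD2, a T cell adhesion receptor, fell by 0.45 on the log2 scale (adjusted p = 0.0177). The part of these genes in the CD5 and CD7 differences was not tested.

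In CD4 sp cells both genes were slightly lower in CCR7+ cells in 4 of 4 dogs. CD5 was 309.8, 390.4, 414 and 455 CPM with CCR7 and 337, 435, 451 and 493 CPM without it, a log2 fold change of -0.10 ± 0.13 (adjusted p = 0.761). CD7 was 126, 140.1, 146 and 167 CPM with CCR7 and 135, 184, 182 and 192 CPM without it, a log2 fold change of -0.23 ± 0.11 (adjusted p = 0.423). With the dog as block these were -0.10 ± 0.03 (adjusted p = 0.0336) and -0.22 ± 0.05 (adjusted p = 0.00169). The main test called 0.0620% of 9678 genes and the blocked one 23.1%. The CCR7 effect on CD5 differed between CD8A sp and CD4 sp cells by 0.42 ± 0.18 (adjusted p = 0.606) and that on CD7 by -0.40 ± 0.18 (adjusted p = 0.649, 0.200% of genes called).

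Ordering the 8 subsets by mean level gave partly inverse lists, as a description without a test. CD8A sp FCER1G- TOX+ cells went against this. They led the CD8A sp subsets for CD5, at rank 4 of 8, and stood at rank 2 for CD7. For CD5 the CD4 sp FCER1G- subsets led with TOX+ (435 ± 69.5 CPM), TOX- CCR7- (419 ± 63.4) and TOX- CCR7+ (389 ± 63.5). The CD8A sp FCER1G- subsets followed with TOX+ (359 ± 59.6), TOX- CCR7+ (298 ± 44.2) and TOX- CCR7- (276 ± 45.0), then FCER1G+ TOX- (151 ± 22.4) and FCER1G+ TOX+ (94.6 ± 46.7). Within dogs, the pairs at ranks 1 and 2, 3 and 4, and 5 and 6 did not differ beyond the spread of their paired differences. For CD7 the order ran from CD8A sp FCER1G+ TOX+ (974.7 ± 136) over FCER1G- TOX+ (502 ± 136), FCER1G+ TOX- (479 ± 40.8), FCER1G- TOX- CCR7- (302 ± 21.9) and FCER1G- TOX- CCR7+ (249 ± 54.1) to the CD4 sp FCER1G- subsets TOX- CCR7- (169 ± 25.3), TOX+ (167 ± 28.6) and TOX- CCR7+ (146 ± 15.6). Ranks 2 and 3, 4 and 5, and 6 and 7 did not differ beyond that spread. The step from rank 1 to rank 2 of CD7, 473 ± 231 CPM, was the widest of the CD7 steps.

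Over these 8 subsets, the genes whose centred log2 levels ran most like CD5 among 2635 genes were C20orf27 (r = 0.986), SH3KBP1 (0.984), SPNS1 (0.982), DENND2D (0.959) and HAX1 (0.952), each lowest in CD8A sp FCER1G+ TOX+ cells. Those most like CD7 were GABARAPL1 (0.994), MT-CO1 (0.985), DDX21 (0.977), ZNF296 (0.972) and TECR (0.970), each highest in that subset. Their ranges on the log2 scale, 0.38 to 1.56, were narrower than the 2.19 of CD5 and the 2.65 of CD7. The 8 points share their libraries and dogs, and leaving out a single dog kept between 2 and 4 of the 5 genes in the list for CD5 and 2 for CD7.

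Detection of both genes in the same cell showed where they parted. After thinning to 2000 UMIs, CD7 without CD5 was found in 12.4% ± 0.82 of CD4 sp cells, 23.1% ± 3.27 of CD8A sp FCER1G- cells, 40.0% ± 8.48 of FCER1G+ TOX- cells and 63.0% ± 9.92 of FCER1G+ TOX+ cells. CD5 without CD7 went from 38.1% ± 3.14 over 22.7% ± 4.06 and 9.89% ± 3.54 to 8.11% ± 4.10 in the same subsets. Cells with both made up 14.8% ± 2.93, 19.6% ± 2.74, 13.3% ± 1.29 and 12.7% ± 7.06. Without thinning, CD7 without CD5 was found in 10.5% ± 1.28, 19.6% ± 4.09, 41.1% ± 5.77 and 60.6% ± 15.5. A missing UMI does not show a missing transcript at this depth.

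**Figure D4:**
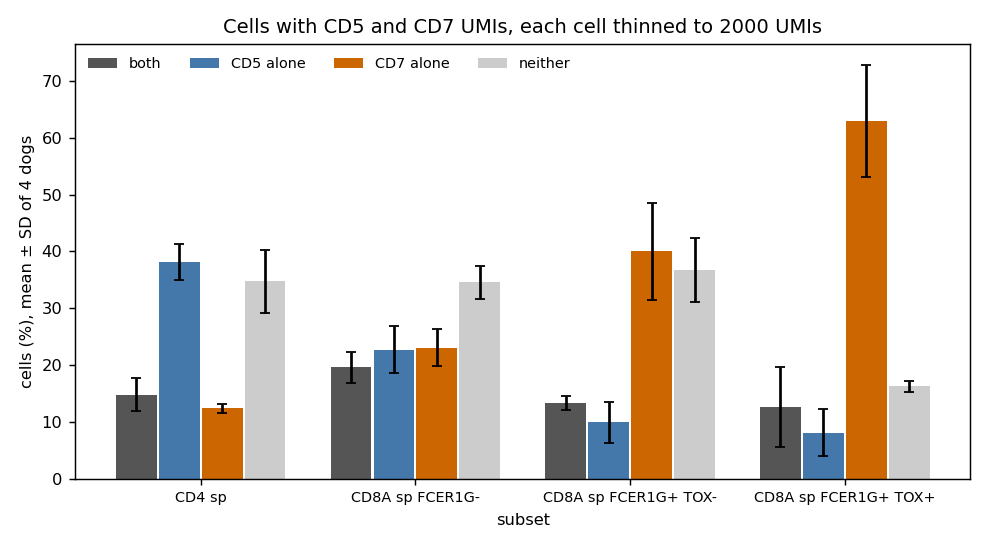
Share of cells (vertical axis, mean ± SD of 4 dogs) with UMIs of both genes, of CD5 alone, of CD7 alone or of neither, in 4 subsets (horizontal axis), each cell thinned to 2000 UMIs. CD7 alone grows from 12.4% in CD4 sp to 63.0% in CD8A sp FCER1G+ TOX+ cells while CD5 alone shrinks from 38.1% to 8.11%.

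The receptor sequences gave a gate within CD8A sp cells that does not use FCER1G, TOX or CCR7 transcripts. In the study, TRAV9-11 joined to TRAJ28 is the main alpha chain of the MAIT-like cells, which are innate-like T cells with a nearly invariant receptor. The study also found this pairing, in smaller shares, in its effector memory and innate-like effector CD8A clusters. The gate is therefore not the MAIT-like cluster alone. CD8A sp cells with this chain (675 cells) had CD5 at 126, 183, 179 and 144 CPM. Those with another productive alpha chain (3897 cells) had 262, 330, 278 and 231 CPM, all above the first. The log2 fold change was -0.77 ± 0.14, or 1.71-fold lower (adjusted p = 0.00676), with 4.53% of 7463 genes called, and it held under all 15 alternatives (-0.84 to -0.70). CD7 was not raised against the other alpha chains: it was 377, 328, 347 and 330 CPM against 473, 482, 366 and 544 CPM. Its log2 fold change was -0.41 ± 0.12 (adjusted p = 0.0685), or -0.40 ± 0.10 with the dog as block (adjusted p = 0.0141, 8.31% of genes called), and DESeq2 gave an adjusted p of 0.0441. This reference is unlike that of the FCER1G gate, as it also holds FCER1G+ and TOX+ cells. The TRAV9-11/TRAJ28 cells averaged 346 ± 22.7 CPM of CD7. All FCER1G- CD8A sp cells averaged 358 ± 43.1 CPM and FCER1G- TOX- cells 292 ± 14.4 CPM. No test was made against these overlapping groups.

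CD6 fell further than CD5 on the log2 scale in these cells, with a log2 fold change of -2.94 (54.3 against 435 CPM). CD52 (-2.85) and CD28 (-1.51) also fell, and 1 of the 15 pan-T genes rose. Over all genes tested in this comparison 4.53% were called. Of the proximal signalling list 3 of 16 rose and 2 fell, led by TXK (1.90), LAT (-1.69) and ZAP70 (0.77). CBLB (1.12) was the only brake of 16 that passed. PIK3R1 rose (1.83) and LGALS1 fell (-1.27). The innate-like list had 9 of 12 genes higher and 1 lower (median 1.27), led by ZBTB16, the PLZF factor of innate-like T cells (2.07), SLAMF1 (-1.93) and CXCR6 (1.89). IL7R (-2.21) and TCF7 (-1.79) fell. The NK sum was 30.7 to 82.7 CPM in the TRAV9-11/TRAJ28 cells, above the 12.7 to 18.0 CPM of all CD8A sp cells, and its part was not tested.

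TRAV24 is an alpha variable gene that the study tied to its iNKT-like cells. TRAV43-1 was the other dominant gene of that cluster, so the gate is not the iNKT-like cluster. It also holds cells of another kind. In dog 1, a CD8A sp group of 21 cells sharing a TRB chain, 90.5% with TRAV24, had no FCER1G or TOX UMI and GZMB in 100%. The values below are therefore not levels of the iNKT-like cluster. The 443 CD8A sp cells with TRAV24 had CD5 at 192, 350.2, 281 and 41.1 CPM, against 232, 301, 265 and 255 CPM in cells with other alpha chains. Only dog 4 stood clearly lower, and dogs 2 and 3 were higher with TRAV24. The log2 fold change was -0.32 ± 0.41 (adjusted p = 0.968), and it was 0.09 without dog 4. CD7 was 442, 578, 523 and 1138 CPM against 450, 438, 358 and 432 CPM, again with dog 4 far from the rest (log2 fold change 0.68 ± 0.21, adjusted p = 0.545, 0.0779% of 7702 genes called). In dog 4, 110 of the 179 TRAV24 cells, or 61.5%, belonged to 1 clonotype. Without it dog 4 stood at 93.3 CPM of CD5 and 795 CPM of CD7.

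Clonotypes, defined as cells of 1 dog with the same TRB V gene, J gene and junction, gave a view of CD5 and CD7 in groups of related cells. They were looked at after the levels had been seen, and as the cells of a clonotype share their origin they carry no test. In CD8A sp cells, 31 clonotypes with 20 or more cells held 1528 cells (3, 4, 11 and 13 clonotypes in dogs 1 to 4). Of these, 26 had CD7 between 72.7 and 522 CPM and CD5 between 91.9 and 488 CPM. The other 5 had CD7 at 1019 CPM or above, with CD5 either nearly absent or high.

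Of the 5, 3 nearly lacked CD5 and were mostly FCER1G+ TOX+. In the largest, 119 cells of dog 4, of which 100% had an FCER1G UMI, 79.8% a TOX UMI and 92.4% a TRAV24 chain, CD7 was seen in 119 of 119 cells (1396 CPM) and CD5 in 2 of 119 cells. That CD5 share of 1.68% has an exact binomial 95% interval of 0.204 to 5.94%, and the level of 4.00 CPM an exact Poisson interval of 0.485 to 14.5 CPM. Intervals here cover counting error only. In the same library 78.0% of CD4 sp cells had a CD5 UMI. Groups closer to this clonotype had less CD5 in dog 4. All CD8A sp cells stood at 227 CPM of CD5 and FCER1G+ TOX+ cells, which hold most of the clonotype, at 42.3 CPM. Of those FCER1G+ TOX+ cells, 80.1% had CD7 without CD5. A clonotype of 29 cells in dog 2, with FCER1G in 100% and TOX in 93.1% of its cells but no TRAV24, had 1 CD5 UMI (5.96 CPM, interval 0.151 to 33.2) and CD7 at 1591 CPM. A clonotype of 21 cells in dog 4, all with TRAV24, had 1 CD5 UMI (8.12 CPM, interval 0.206 to 45.3) and CD7 at 1438 CPM.

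The remaining 2 had no FCER1G UMI in any cell and high levels of both genes. One in dog 2, with 22 cells and TOX in 81.8% of them, had CD5 at 602 CPM (interval 470.3 to 759.6) and CD7 at 1679 CPM (interval 1454 to 1930.2). The other in dog 4, with 21 cells and TOX in 52.4% of them, had CD5 at 612 CPM (467 to 787) and CD7 at 1019 CPM (829 to 1240). GZMB UMIs were found in 20.2, 41.4, 28.6, 31.8 and 19.05% of the cells of the 5 clonotypes in the order given.

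**Figure D5:**
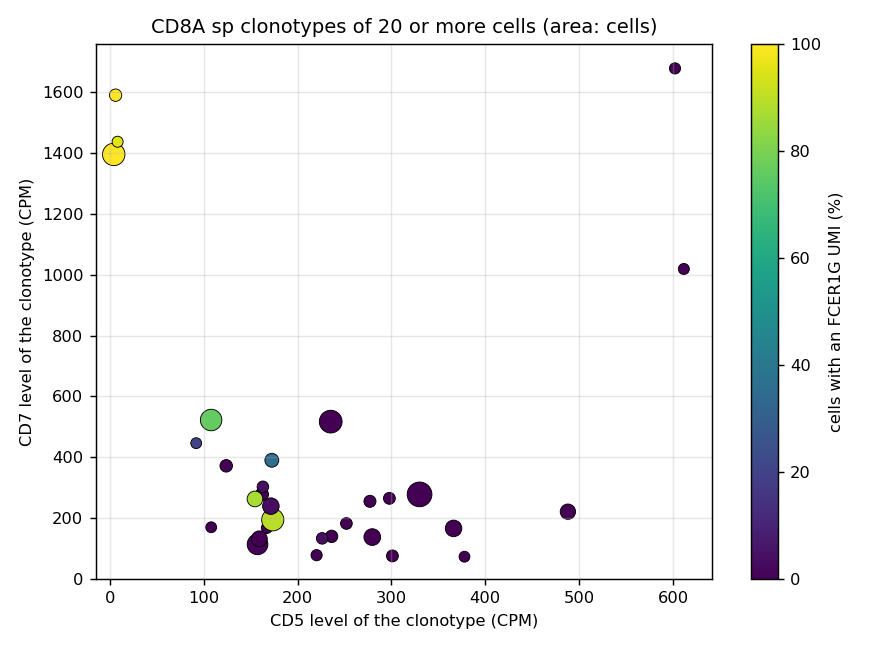
CD5 level (horizontal axis) against CD7 level (vertical axis), both in CPM, of the 31 CD8A sp clonotypes with 20 or more cells, with symbol area by number of cells and colour by the share of cells with an FCER1G UMI. The 3 clonotypes with FCER1G in 95.2 to 100% of cells and CD5 at 4.00 to 8.12 CPM sit at 1396 to 1591 CPM of CD7, and 2 without FCER1G sit at 602 to 612 CPM of CD5 and 1019 to 1679 CPM of CD7.

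FCER1G alone did not set the clonotypes apart. A clonotype of 116 cells in dog 3, with FCER1G in 89.7% of its cells, TOX in 0.862% and the TRAV9-11/TRAJ28 chain in 86.2%, had CD5 at 173 CPM (132 to 224) and CD7 at 194 CPM (150.1 to 247). A clonotype of 108 cells in dog 4, with FCER1G in 75.9%, TOX in 8.33% and GZMB in 94.4% of its cells, had CD5 at 108 CPM (76.7 to 147) and CD7 at 522 CPM (451 to 602). The 5 clonotypes made mostly of TRAV9-11/TRAJ28 cells, from dogs 1, 3 and 4, ranged from 91.9 to 173 CPM of CD5 and from 194 to 446 CPM of CD7. An FCER1G UMI was found in 35.9 and 20% of their cells in dog 1, 89.7% in dog 3, and 0 and 4.17% in dog 4. Those of dog 4 had CD5 at 124 and 163 CPM.

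Large clonotypes took a substantial share of the FCER1G+ TOX+ subset. The largest one made up 18.2, 26.0, 15.6 and 40.3% of its cells in dogs 1 to 4. Without these clonotypes the subset had CD7 at 761, 726, 919.8 and 964 CPM.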

How the data were processed

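Peripheral blood T cells were stained for TCRαβ, sorted and frozen, and 5' gene expression and V(D)J libraries were made with a droplet kit. The authors ran Cell Ranger (5.0.1 in the submitters' processing notes) against CanFam 3.1 and deposited filtered UMI counts per gene and cell and, per the labels, V(D)J contigs with their UMI counts. The gene list of dog 1 had another length than its matrix, so the list of dog 2 was used for it. Its log totals per gene tracked those in the other libraries (r = 0.989 to 0.991).

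Counts of kept cells were summed per subset and dog (at least 20 cells) and tested with edgeR 4.0.16 (TMM, expression filter, quasi-likelihood test, no block), with Benjamini-Hochberg adjustment over all genes and a threshold of 0.05. Genes that define a gate were not removed, so the shares of genes called can include them, and their difference follows from the gate. Both gates of a comparison came from the same dog and library, which pairs the samples. Same-dog deviations correlated at r = 0.139 to 0.751 over 40 pairs, and a fit with the dog as block was run as an alternative. Other alternatives were DESeq2 1.42.0, no TMM, no filter, each dog left out, gates of 2 UMIs, thinning to 2000 UMIs, only cells with 1 TRB chain, a 5% mitochondrial limit and, added after seeing the data, the largest clonotype left out and blocked forms of these. No doublet caller was run. Productive TRB contigs of 2 kinds were in 3.04 to 4.73% of cells with TRB.

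The genes, gates and lists were chosen with earlier results of these data known. The named list genes were, per list, the 3 of largest absolute log2 fold change that passed the test with the same direction in 4 of 4 dogs. Values of 2 genes that this rule named are not reported here. Likeness was Pearson's r over log2(CPM + 10) centred within dogs, among genes of at least 50 CPM. The script was tested on simulated counts. Sequences of the 2 genes were not used here.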

Additional observations from a re-analysis of the deposited data

Results flagged for a closer look

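In 2 of 62 sets of 4 dogs, many of them overlapping, 1 dog stood apart from the other 3 by more than Dixon's criterion, which chance alone exceeds in about 1 in 20 sets. CD7 in CD4 sp FCER1G- TOX- CCR7- cells was 131 CPM in dog 1 against 176 to 184 CPM in the others. CD7 in CD8A sp FCER1G+ TOX- cells was 419 CPM in dog 3 against 492 to 505 CPM in the others.

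CD5 moved in opposite directions in all 4 dogs in 2 cases. How many of all genes show such a pattern was not counted. By CCR7, its mean difference was 47.1 CPM (CCR7+ minus CCR7-) in CD8A sp and -36.8 CPM in CD4 sp cells. Among CD8A sp cells with neither an FCER1G nor a TOX UMI it was 21.9 ± 38.6 CPM, with CCR7+ cells higher in 2 of 4 dogs. By TOX, it was -56.2 CPM (TOX+ minus TOX-) in CD8A sp FCER1G+ and 80.8 CPM in CD8A sp FCER1G- cells. Without the largest clonotype of each subset and dog, the direction in FCER1G+ cells no longer held in every dog. The fitted difference there was also smaller after thinning. The interaction tests given in the report called neither in edgeR's fit without a block (adjusted p = 0.606 and 0.609).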

How the results depend on the processing

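Over 30 tested log2 fold changes, 288 of 328 values from alternatives other than leaving out a dog kept their direction and their side of the threshold, 34 passed where the main test did not, 3 fell short and 3 changed sign. The causes were not tested. Settings with the largest clonotype left out, and blocked forms of other settings, were chosen after seeing the data.

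With the dog as replicate block, CD5 passed by CCR7 in CD8A sp (0.34) and CD4 sp cells (-0.10), by TOX in FCER1G+ (-0.90) and FCER1G- cells (0.31), and CD7 by CCR7 in CD4 sp cells (-0.22), by TOX in FCER1G- cells (0.68), by TRAV9-11/TRAJ28 (-0.40) and for the TOX difference between lineages (0.81). The block alone changed no other call of CD5 or CD7, but it raised the genes called from 1429 to 2744 (CD8A sp against CD4 sp), from 164 to 461 (FCER1G in CD8A sp), from 15 to 499 (TOX in CD8A sp) and from 2 to 663 (TOX in CD4 sp).

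In cells with 1 TRB, the block gave passing values of 0.29 and -0.13 (CD5 by CCR7 in CD8A sp and CD4 sp), -0.25 (CD7 by CCR7 in CD4 sp), -1.04 (CD5, TOX in FCER1G+), 0.77 (CD7, TOX in FCER1G-), -0.37 (CD7, TRAV9-11/TRAJ28), 0.89 (CD7, TOX difference between lineages) and -1.39 (CD5, TOX difference between FCER1G gates). With the largest clonotype left out and the block, values of 0.34, -0.10, -0.22, -0.61, 0.29 (CD5, TOX in FCER1G-), 0.71 (CD7, same), 0.45 (CD7, TRAV24), 0.82 (CD7, TOX difference between lineages) and 0.42 (CD5, CCR7 difference) passed, the first 4 for CD5 by CCR7 in CD8A sp, CD5 and CD7 by CCR7 in CD4 sp, and CD5 by TOX in FCER1G+ cells. Thinned and blocked, 0.38 (CD5, CCR7 in CD8A sp), 0.55 (CD7, TOX in FCER1G-) and 0.81 (CD7, TRAV24) passed, while CD7 by CCR7 in CD8A sp fell short (-0.29).

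Thinning alone ended the calls of CD7 by TOX (0.67) and CCR7 (-0.37) in CD8A sp cells. Without a filter, CD5 by TOX in FCER1G+ cells (-0.90) and CD7 by TRAV9-11/TRAJ28 (-0.43) passed. DESeq2 called CD7 by TOX in FCER1G- cells (0.72) and by TRAV9-11/TRAJ28 (-0.41). A gate of 2 UMIs called CD7 by TOX in FCER1G- cells (0.96) and for the TOX difference between lineages (1.14), and turned that of CD5 to -0.083. The CD7 difference of TOX between FCER1G gates turned to -0.076 without the largest clonotype and to -0.049 with the block as well.

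Leaving out each dog moved CD5 between lineages from -0.79 to -0.55, CD7 by TOX in CD8A sp cells from 0.75 to 0.95 and by CCR7 from -0.83 to -0.52, with calls lost as given above. It moved CD5 by TOX in FCER1G+ cells from -1.21 to -0.54, CD7 by TOX in FCER1G- cells from 0.64 to 0.90 and CD7 by TRAV9-11/TRAJ28 from -0.51 to -0.33, each passing without dog 3. Signs turned for CD7 by TOX in CD4 sp cells (-0.019 to 0.085, without dog 4), CD5 by TRAV24 (-0.74 to 0.093, without dog 4) and the CD7 difference of TOX between FCER1G gates (-0.016 to 0.41, without dog 3). FCER1G in CD4 sp cells was not run with the block, a gate of 2 UMIs, thinning, 1 TRB, the 5% mitochondrial limit or without dog 2, for lack of cells.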

Other observations

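CD4 sp cells also held expanded clonotypes, 14 with 20 or more cells (457 cells; 3 in dog 2, 1 in dog 3 and 10 in dog 4). Their CD5 ranged from 128 to 924 CPM with a median of 597 CPM, and their CD7 from 99.9 to 321 CPM. The lowest, 28 cells of dog 4, had CD5 at 128 CPM (exact Poisson interval 78.3 to 198) and the highest, 24 cells of the same dog, at 924 CPM (760.03 to 1113), with CD7 at 244 and 99.9 CPM. All CD4 sp cells of that dog together stood at 482 CPM of CD5.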
